A study of Homo sapiens with 12 samples.

Results

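The BAF and PBAF chromatin remodelers were represented by 10 genes, taken by symbol from the count tables of QGP-1 and BON-1 cells, in which each of the 10 had a row among 28008 genes. SMARCA4 and SMARCA2 encode the alternative ATPases, and SMARCC1, SMARCB1 and SMARCD1 encode core subunits that BAF and PBAF share. ARID1A and ARID1B are found in BAF only, whereas ARID2, PBRM1 and BRD7 are found in PBAF only. QGP-1 and BON-1 are established human pancreatic neuroendocrine tumor (pNET) lines, and both carried tet-MUC1shRNA, a doxycycline-inducible hairpin against the MUC1 transcript. The 4 groups were the hairpin-bearing cells of either line, kept for 7 days with vehicle (0.1% DMSO) or with 500 ng/mL doxycycline (DOX), each as 3 libraries, 12 in all. DOX was present only in the cells that also expressed the hairpin and a line with a control hairpin is not analysed here, so that the drug and the loss of MUC1 cannot be told apart in these libraries. The libraries of a group came from triplicate cultures, described by the authors as biological triplicates, and p-values measure the spread between these libraries.

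The mammalian SWI/SNF (mSWI/SNF) complexes use the energy of ATP to slide or evict nucleosomes and so open chromatin at enhancers and promoters. They are built from a common core, to which one ATPase and a set of class-defining subunits are added. An ARID1 subunit with a DPF protein defines BAF, ARID2 with PBRM1, BRD7 and PHF10 defines PBAF, and BICRA or BICRAL with BRD9 defines the non-canonical form, ncBAF. Many subunits come as paralogs that replace each other, some of them favored in neurons, and genes for several subunits, ARID1A and SMARCA4 among them, are recurrently mutated in human cancers. MUC1-C, the oncogenic subunit of the MUC1 protein, has been linked to these complexes in other cancers, and the transcription factors E2F1 and JUN are given beside the subunits as factors that have been tied to it.

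The labels were borne out by the target of the hairpin. MUC1 was at 7.19, 5.81 and 5.65 CPM (counts relative to the TMM-scaled library size within each line) in QGP-1 cells with vehicle and at 0.705, 1.04 and 0.744 with DOX. BON-1 cells held 20.6, 20.7 and 15.6 CPM of MUC1 with vehicle and 1.48, 2.65 and 3.97 with DOX. Every DOX library lay below every vehicle library of its line, with log2 fold changes of −2.91 (SE 0.226, adjusted p = 8.24e-07 by edgeR) and −2.79 (SE 0.218, adjusted p = 6.51e-11). Of 12 neuroendocrine markers, 10 or 11 reached 1 CPM in each library, with SCG2 or CHGA as the most abundant, whereas NEUROD1 had a count of 0 in the 6 QGP-1 libraries and ISL1 in the 6 BON-1 libraries. Of 12 markers of other cells, 3 or 4 reached 1 CPM, led by PRSS1, SOX9 or KRT19, and PTPRC, CD3E and HBB were at or near 0 throughout. In CPM relative to the unscaled library size, the neuroendocrine markers summed to 4567, 4286 and 4904 in QGP-1 vehicle libraries against 5536, 5141 and 5820.5 with DOX, and to 14769, 12048 and 13967 against 9270.1, 9579 and 9143 in BON-1 cells. Of these markers 4 were higher (CHGB, SCG3, ISL1 and SSTR2) and 1 lower (PAX6, −0.59) of 11 tested in QGP-1 cells, and 2 were higher (SCG2, 0.45, and SCG3, 0.27) and 4 lower (CHGA, SYP, NKX2-2 and SSTR2) of 10 tested in BON-1 cells. By the same edgeR test 17.3% of all genes were higher and 17.7% lower in the QGP-1 comparison, and 17.0% and 18.3% in the BON-1 comparison. CHGA, which encodes a protein of secretory granules, fell in BON-1 cells (log2 fold change −1.46, SE 0.109, adjusted p = 2.45e-11 by edgeR), and SSTR2, a somatostatin receptor, rose in QGP-1 cells (2.22, SE 0.245, adjusted p = 1.66e-05) and fell in BON-1 cells (−0.75, SE 0.26, adjusted p = 0.0263). On the same scale the 12 markers of other cells summed to 222, 186 and 229 CPM in QGP-1 vehicle libraries against 106, 123 and 120 with DOX, and to 368, 350 and 328 against 487, 525 and 431 in BON-1 cells. Among these genes PRSS1, an acinar protease, fell in both lines (−1.83 and −0.75) and COL1A1, a collagen of fibroblasts, fell in QGP-1 cells (−1.16), while in BON-1 cells CPA1 (−1.72) also fell and the ductal genes KRT19 (0.79) and SOX9 (0.31) rose. CPA1 was at 0.746, 1.24 and 1.00 CPM with vehicle there and at 0.449, 0.104 and 0.356 with DOX, so that its value rests on few counts. Depth was 38224144 to 50525926 counts per library in QGP-1 cells and 15981954 to 28484324 in the BON-1 libraries. The noncoding RNAs RN7SK, RN7SL1 and RN7SL2 took 5.37%, 5.94% and 6.38% of the counts in QGP-1 vehicle libraries and 4.53%, 3.36% and 3.30% with DOX. In BON-1 cells they took 2.39%, 1.35% and 1.77% with vehicle and 3.77%, 2.98% and 1.55% with DOX. The part of these differences in the results was not tested, and in bulk RNA fewer cells of a type and less RNA per cell cannot be told apart.

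In QGP-1 cells 9 of the 10 genes had a positive log2 fold change (DOX against vehicle), with a median of 0.18 beside −0.012 for all 15089 genes tested, and 1 gene, PBRM1, passed the test and rose. That count stood beside a background of 17.3% of all genes called higher and 17.7% called lower by edgeR's quasi-likelihood test at an adjusted p below 0.05. The count of members higher depended on the processing. It was 2 by library size (where 2740 of all 15089 genes tested were higher), 4 without a filter and 3 with a replicate block. Limma on rescaled TPM gave 9 (where 6520 of all 12928 genes tested were higher), and the fit without QGP-1 DOX replicate 1 gave 3. Without a filter or with the block, the number of all genes called higher moved by no more than 1.5 times. No member was called lower in QGP-1 cells (0 of 10 by edgeR and 0 by DESeq2, with 1 lower and 4 higher at an unadjusted p below 0.05). In BON-1 cells 8 of the 10 had a negative log2 fold change, with a median of −0.17 beside −0.010 for 14625 genes tested. SMARCB1, PBRM1, ARID2, SMARCA4 and ARID1A fell and SMARCD1 rose, which is 5 lower and 1 higher against a background of 18.3% lower and 17.0% higher. DESeq2 also called 5 lower, edgeR called 3 with both lines in 1 fit, and the count was between 3 and 5 when each library was left out in turn, with 3 calls without BON-1 vehicle replicate 1, BON-1 vehicle replicate 2 or BON-1 DOX replicate 1.

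Scaling bears on these directions. In QGP-1 cells the 3 noncoding RNAs took 78.8%, 80.1% and 80.3% of the deposited TPM with vehicle and 75.4%, 71.2% and 72.1% with DOX. In BON-1 cells they took 65.6%, 50.9% and 58.8% with vehicle and 74.3%, 70.4% and 53.4% with DOX. With TPM rescaled after leaving out the 3 noncoding RNAs, all genes together shifted to a median of 0.29 on the log2 scale in QGP-1 cells, where limma called 668 genes lower and 6520 higher against 2676 and 2610 by edgeR. Relative to that median the 10 genes lay 0.20 higher, against 0.19 higher with TMM. In BON-1 cells limma on the rescaled TPM called 2395 genes lower and 1410 higher, against 2677 and 2488 by edgeR, and the 10 genes lay below the median of all genes by −0.16 with either scaling.

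**Figure D1:**
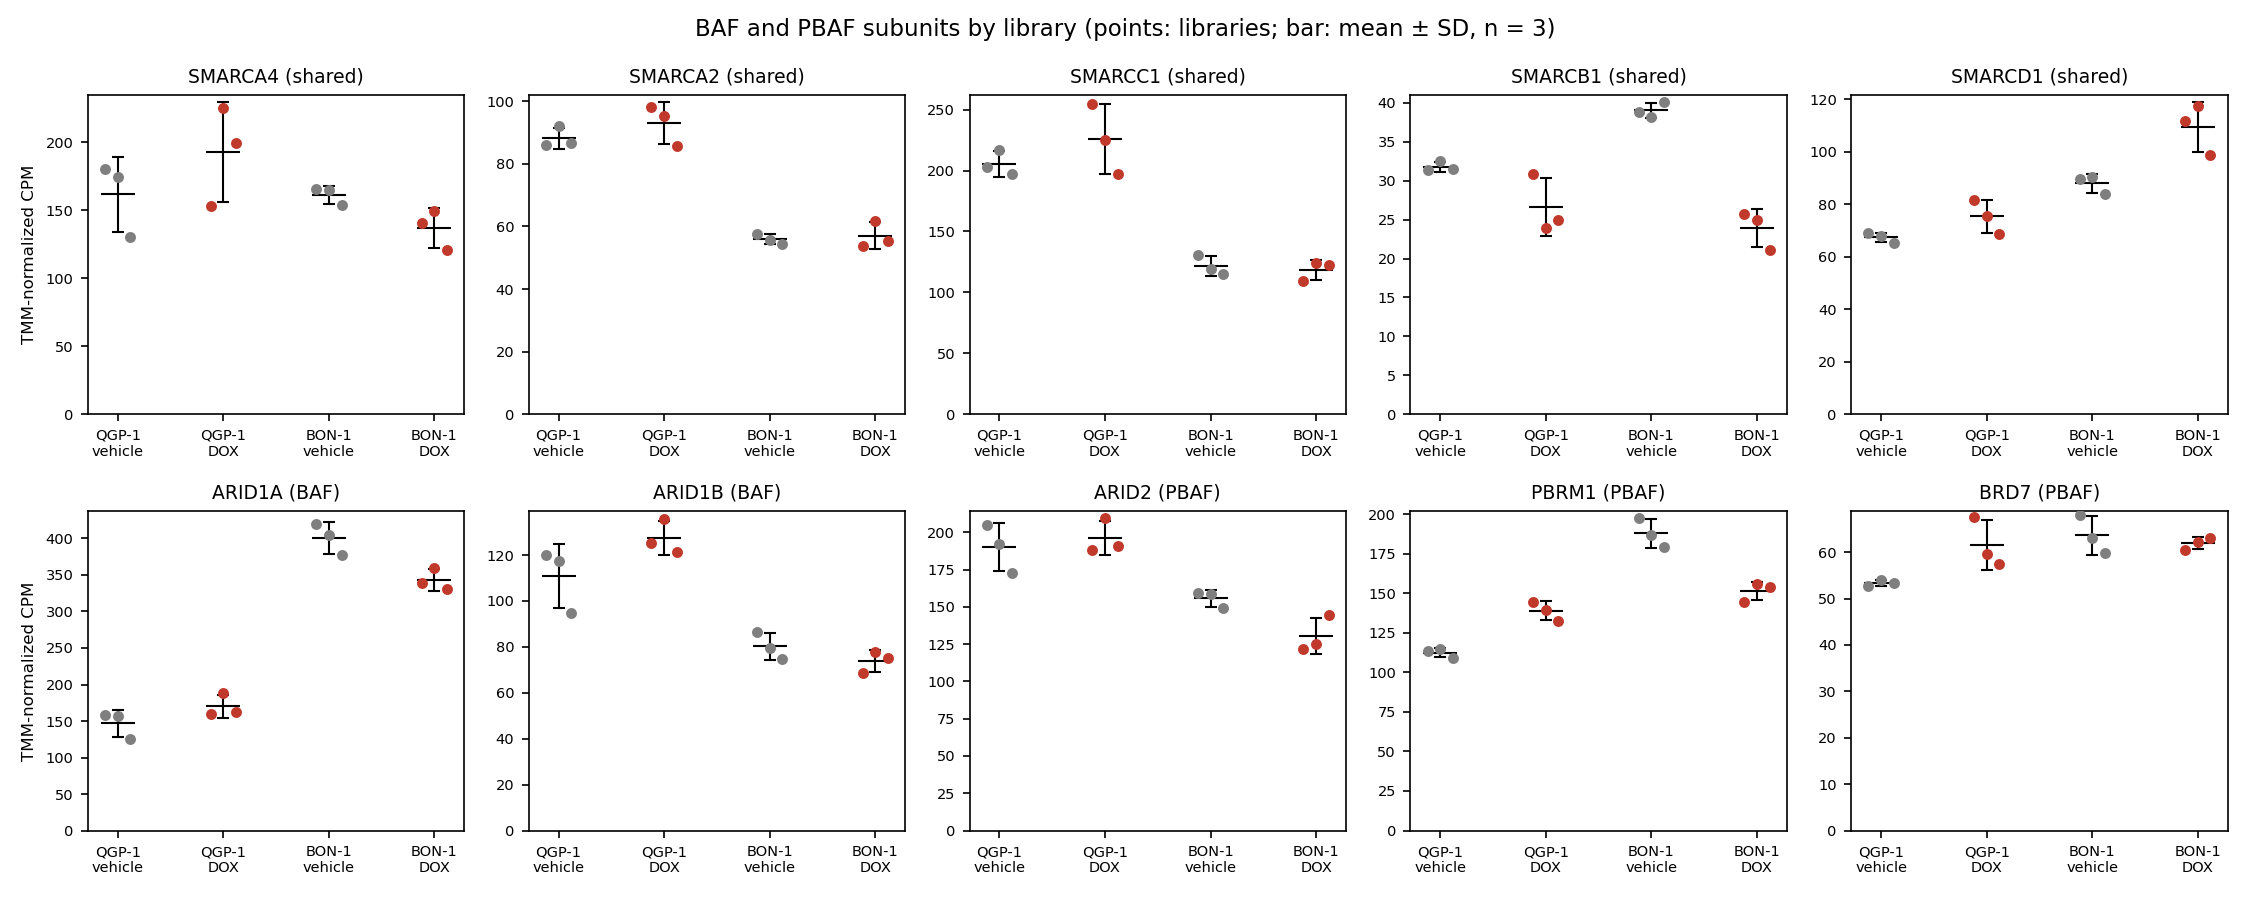
TMM-normalized CPM of the 10 genes (y axis, one scale per panel from 0) in the 4 groups (x axis), with each library as a point and the mean ± SD over 3 libraries as a bar. PBRM1 rose in QGP-1 cells and fell in BON-1 cells, SMARCB1 fell in BON-1 cells from 39.0 to 23.9 CPM, and SMARCA4 in QGP-1 cells shows the widest spread between replicates.

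SMARCA4 (BRG1), the ATPase that drives most BAF and PBAF complexes, was at 180, 174 and 130 CPM in QGP-1 vehicle libraries and at 153, 226 and 199 with DOX. The groups overlapped, since DOX replicate 1 lay below vehicle replicates 1 and 2. The log2 fold change was 0.25 (SE 0.132, adjusted p = 0.157 by edgeR), and without DOX replicate 1 it was 0.40 with an adjusted p of 0.013. Over left-out libraries it ran from 0.12 to 0.40, and it was called in 3 of 14 alternatives. In BON-1 cells SMARCA4 was at 166, 165 and 154 CPM with vehicle and at 140, 149 and 121 with DOX, without overlap. It fell by 15.1% (log2 fold change −0.24, SE 0.0814, adjusted p = 0.0242 by edgeR). This call was lost without BON-1 vehicle replicate 1 (−0.22, adjusted p = 0.063), vehicle replicate 2 (−0.23, adjusted p = 0.0684) or DOX replicate 3 (−0.17, adjusted p = 0.0935) and with both lines in 1 fit (−0.23, adjusted p = 0.16), and the range over 14 alternatives began at 0.00778. SMARCA2 (BRM), the alternative ATPase, was not called by edgeR in either line. Its log2 fold changes were 0.08 (SE 0.0748) in QGP-1 cells and 0.03 (SE 0.0876) in BON-1 cells. Limma on rescaled TPM called SMARCA2 higher in QGP-1 cells (0.39, adjusted p = 0.0036). The sign of the BON-1 value turned with library size or TPM scaling and without DOX replicate 2.

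Among the shared core subunits, SMARCB1 showed the largest change of the 10 genes. It encodes the subunit that grips the face of the nucleosome opposite the ATPase. In BON-1 cells SMARCB1 was at 38.8, 38.2 and 40.1 CPM with vehicle and at 25.7, 24.96 and 21.1 with DOX. The highest DOX library lay well below the lowest vehicle library, and SMARCB1 fell by 38.8% (log2 fold change −0.71, SE 0.105, adjusted p = 5.34e-06 by edgeR). It was called lower in 14 of 14 alternatives, at −0.77 to −0.64. In QGP-1 cells SMARCB1 was at 31.3, 32.5 and 31.5 CPM with vehicle and at 30.9, 24.0 and 25.003 with DOX. The DOX libraries lay below the vehicle libraries, although replicate 1 was only just so. The log2 fold change there was −0.25 (SE 0.103, adjusted p = 0.0695 by edgeR), without DOX replicate 1 it was −0.37 (adjusted p = 0.00745), and with rescaled TPM it was 0.06. SMARCB1 lies on the plus strand of chromosome 22 from 23786931 to 23838009 (GRCh38, GENCODE), and 2923 of its 16526 annotated exonic bases overlap exons of DERL3 on the opposite strand, which was at 0.716 CPM with vehicle and 0.326 with DOX in BON-1 cells. The kit marks the strand but the strand setting of the counting is not given in the sources used here.

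Promoters are shown for SMARCB1, ARID1A and PBRM1, the members whose responses differed between the lines, as the 250 bases before the RefSeq start (GRCh38.p14). They were searched on both strands for the E2F words TTTCCCGC, TTTGGCGC and TTTCGCGC, the AP-1 word TGANTCA and the E-box CACGTG, and matches, none of which overlapped another motif, are in capitals. Over 27305 promoters of this length, 2.38% held an E2F word, 6.60% an AP-1 word and 6.49% an E-box. For SMARCB1, from chr22:23786716-23786965 on the plus strand, the AP-1 word TGAGTCA begins 163 bases before the start.
SMARCB1: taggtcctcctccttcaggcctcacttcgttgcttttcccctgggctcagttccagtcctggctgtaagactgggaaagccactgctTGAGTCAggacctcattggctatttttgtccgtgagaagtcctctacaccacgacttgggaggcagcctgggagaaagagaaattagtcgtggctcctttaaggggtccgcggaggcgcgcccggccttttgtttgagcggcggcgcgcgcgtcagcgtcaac

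SMARCD1, another core scaffold subunit that links the complex to transcription factors, moved the other way in BON-1 cells. It was at 89.8, 90.3 and 83.8 CPM with vehicle and at 112, 117 and 98.8 with DOX, with every DOX library above the vehicle libraries. SMARCD1 rose by 24.3% (log2 fold change 0.31, SE 0.0821, adjusted p = 0.00363 by edgeR), and it was called higher in 14 of 14 alternatives. In QGP-1 cells it was at 68.9, 67.9 and 65.3 CPM with vehicle and at 81.7, 75.6 and 68.8 with DOX, a log2 fold change of 0.16 (SE 0.0793, adjusted p = 0.131 by edgeR). There the lowest DOX library touched the range of the vehicle libraries. SMARCC1, a scaffold of the core, was not called by edgeR in either line. Its log2 fold changes were 0.13 (SE 0.0859) in QGP-1 and −0.04 (SE 0.0797) in BON-1 cells. The BON-1 value turned sign without BON-1 vehicle replicate 1 or DOX replicate 1. In QGP-1 cells left-out libraries gave 0.048 to 0.22, and limma on rescaled TPM called SMARCC1 higher (0.45, adjusted p = 0.00367).

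ARID1A, the most frequently mutated SWI/SNF subunit in human tumors, anchors BAF. In BON-1 cells it was at 420, 404 and 377 CPM with vehicle and at 339, 360 and 331 with DOX. The groups did not overlap, and ARID1A fell by 14.4% (log2 fold change −0.22, SE 0.0757, adjusted p = 0.022 by edgeR). The call was narrowly lost without BON-1 vehicle replicate 1 (−0.19, adjusted p = 0.0654), vehicle replicate 2 (−0.22, adjusted p = 0.0509) or DOX replicate 1 (−0.22, adjusted p = 0.0504) and with both lines in 1 fit (−0.21, adjusted p = 0.0696), and it ranged from 0.00468 to 0.0696 over 14 alternatives. In QGP-1 cells ARID1A was at 158, 157 and 125 CPM with vehicle and at 160, 189 and 163 with DOX. The DOX libraries lay above the vehicle libraries by a narrow margin, and the log2 fold change of 0.22 (SE 0.0936, adjusted p = 0.09 by edgeR) did not pass, except in 4 of 14 alternatives (without DOX replicate 1 it was 0.27, adjusted p = 0.0485). Over left-out libraries this value ran from 0.11 to 0.27. ARID1B, its paralog, was at 120, 117 and 94.8 CPM with vehicle and at 125, 136 and 121 with DOX in QGP-1 cells. These groups did not overlap, and the log2 fold change was 0.20 (SE 0.0888, adjusted p = 0.0907 by edgeR). Left-out libraries gave 0.10 to 0.27. ARID1B was called there in 3 of 14 alternatives, namely without a filter (0.21), with a replicate block (0.21) and with limma on rescaled TPM (0.51). In BON-1 cells the ARID1B groups overlapped and the log2 fold change was −0.12 (SE 0.085, adjusted p = 0.294 by edgeR). ARID1A lies on the plus strand of chromosome 1 from 26693236 to 26782104. Its promoter, from chr1:26695765-26696014, was taken before the RefSeq start and lies inside this GENCODE span, not before the start of the span. The promoter held none of the words searched, so that it stands in lower case throughout.
ARID1A: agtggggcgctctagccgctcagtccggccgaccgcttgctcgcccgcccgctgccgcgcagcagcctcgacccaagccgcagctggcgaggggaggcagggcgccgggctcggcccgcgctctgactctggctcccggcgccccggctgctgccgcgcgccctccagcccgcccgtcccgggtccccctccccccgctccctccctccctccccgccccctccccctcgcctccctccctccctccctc

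PBRM1, the bromodomain subunit that reads acetylated histones for PBAF, was the only one of the 10 genes called by edgeR in both lines, and in opposite directions. In QGP-1 cells it was at 113, 115 and 109 CPM with vehicle and at 145, 140 and 133 with DOX. The groups stood well apart, and PBRM1 rose by 23.5% (log2 fold change 0.30, SE 0.0666, adjusted p = 0.00282 by edgeR). In BON-1 cells it was at 197, 187 and 179 CPM with vehicle and at 145, 156 and 154 with DOX. All DOX libraries lay below the vehicle libraries, and PBRM1 fell by 19.4% (log2 fold change −0.31, SE 0.075, adjusted p = 0.0017 by edgeR). Both calls held in 14 of 14 alternatives. Among all 13535 genes tested in both lines, 161 were called higher in QGP-1 and lower in BON-1 cells, and 203 the reverse. With DOX the means were 139 CPM ± 6.04 (SD, n = 3) in QGP-1 and 151 CPM ± 5.88 (SD, n = 3) in BON-1 cells, each scaled within its line. The DOX groups of the lines were not tested against each other. PBRM1 lies on the minus strand of chromosome 3 from 52545352 to 52685917. GNL3, a neighbor on the opposite strand that overlaps its span but shares 0 exonic bases with it, had log2 fold changes of 0.07 (adjusted p = 0.433 by edgeR) in QGP-1 cells and 0.24 (adjusted p = 0.0192) in BON-1 cells. UQCC5, named SMIM4 in the tables, overlaps 146 of the 9654 exonic bases of PBRM1 and was below 4 CPM on average in each group. The promoter, from chr3:52685914-52686163 and written along the minus strand, holds the E-box 130 bases before the start.
PBRM1: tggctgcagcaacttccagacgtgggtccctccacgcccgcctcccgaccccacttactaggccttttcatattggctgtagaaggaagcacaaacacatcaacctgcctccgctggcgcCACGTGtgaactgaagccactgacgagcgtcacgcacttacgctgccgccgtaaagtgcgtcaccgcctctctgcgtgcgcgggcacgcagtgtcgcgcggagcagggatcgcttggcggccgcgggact

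Of the other PBAF subunits, ARID2, which takes the place of ARID1A and ARID1B in PBAF, was at 159, 159 and 149 CPM with vehicle and at 122, 125 and 144 with DOX in BON-1 cells. DOX replicate 3 came closest to the vehicle libraries, without reaching them. ARID2 fell by 16.3% (log2 fold change −0.26, SE 0.0793, adjusted p = 0.0125 by edgeR), and was called in 12 of 14 alternatives, with adjusted p between 0.000919 and 0.0761, the call being lost with limma on rescaled TPM (log2 fold change −0.29) and without BON-1 DOX replicate 1 (log2 fold change −0.22, adjusted p = 0.0666). In QGP-1 cells ARID2 had a log2 fold change of 0.05 (SE 0.076, adjusted p = 0.678 by edgeR). BRD7, a bromodomain protein also known as a cofactor of p53, was at 52.7, 54.0 and 53.4 CPM with vehicle and at 67.6, 59.6 and 57.5 with DOX in QGP-1 cells. The DOX libraries lay above, with a log2 fold change of 0.21 (SE 0.081, adjusted p = 0.0623 by edgeR), whereas in BON-1 cells the value was −0.04 (SE 0.0851). BRD7 has 7 annotated processed pseudogenes, and 3593 of its 8597 exonic bases overlap exons of ADCY7 on the opposite strand, which was at 7.73 CPM with vehicle and 5.39 with DOX in QGP-1 cells and at 11.2 and 7.72 in BON-1 cells, well below BRD7, and fell in both lines (log2 fold changes −0.52 and −0.54). How reads shared with these copies or with ADCY7 were counted is not given in the sources used here, so that the counts of BRD7 are uncertain to that extent. The promoter of BRD7 holds the E2F word TTTCCCGC 25 bases before the start. Of the 10 genes, 8 had an entry among these promoters, and each of the 3 motifs was found in 1 of the 8.

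BAF and PBAF members had positive log2 fold changes in QGP-1 cells and negative ones in BON-1 cells, although ARID2 in the former (0.05) and BRD7 in the latter (−0.04) lay within 1 SE of 0 and turned sign over left-out libraries. In QGP-1 cells the median log2 fold change was 0.21 over the 2 BAF members, 0.21 over the 3 PBAF members and 0.13 over the 5 shared members. In BON-1 cells the corresponding medians were −0.17, −0.26 and −0.04. With PHF10 and the DPF genes added, 4 PBAF subunits had a median of 0.26 in QGP-1 and −0.27 in BON-1 cells, and the BAF subunits had medians of 0.22 over 4 genes and −0.07 over 5. These medians rest on few genes and were not tested against each other.

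An interaction term over the 12 libraries tested whether the lines responded differently. The authors grew the lines in different media, so that line and medium cannot be told apart in this term. In BON-1 relative to QGP-1 cells, 3 of the 10 genes responded lower (4 by DESeq2 and 6 at an unadjusted p below 0.05), against a background of 7.92% of 16598 genes lower and 8.80% higher, and 0 responded higher (0 by DESeq2 and 0 at an unadjusted p below 0.05). PBRM1 differed by −0.61 (SE 0.102, adjusted p = 0.000188 by edgeR) and was called in 16 of 16 alternatives. ARID1A differed by −0.43 (SE 0.124, adjusted p = 0.0191 by edgeR), and the call was lost without QGP-1 vehicle replicate 3 (−0.33, adjusted p = 0.0606) or QGP-1 DOX replicate 2 (−0.35, adjusted p = 0.071), within a range of 0.000725 to 0.071. SMARCB1 differed by −0.45 (SE 0.148, adjusted p = 0.0403 by edgeR), which passed in 9 of 16 alternatives, with adjusted p between 0.0168 and 0.086, and missed in 7 fits that left out a library, namely QGP-1 vehicle replicates 1, 2 or 3, QGP-1 DOX replicate 1, BON-1 vehicle replicates 1 or 3, or BON-1 DOX replicate 3. SMARCA4 differed by −0.48 (SE 0.167) and just missed (adjusted p = 0.0503 by edgeR), with calls in 8 of 16 alternatives. The count of members lower ran from 1 without QGP-1 vehicle replicate 3 to 5 without QGP-1 DOX replicate 1 or BON-1 DOX replicate 2, and it was 6 with library size and 6 without a filter, with SMARCA4, ARID1B and ARID2 added.

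Adding the other 19 subunits gave a wider count. Over all 29 subunits, 28 were tested in QGP-1 cells, of which 6 were called higher (PBRM1, SMARCD3, SS18L1, PHF10, ACTB and BCL7A; 17.3% of all genes) and 0 lower (17.7% of all genes), with 0 lower by DESeq2 and 3 at an unadjusted p below 0.05. The count higher was far larger with limma on rescaled TPM, as given under the processing, where 6520 of all 12928 genes tested were higher. Among the 29 tested in BON-1 cells, 10 were lower (the 5 members with ACTL6A, ACTL6B, BCL7A, BCL7C and BICRAL) and 2 were higher (SMARCD1 and SS18L1), beside 18.3% and 17.0% of all genes. The median over these 29 was −0.12, against 0.15 over the 28 in QGP-1 cells. DESeq2 called 8 lower and 3 higher, and left-out libraries moved the 10 to between 5 and 11, with 5 without BON-1 vehicle replicate 1.

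SS18L1 (CREST), the neuronal counterpart of SS18, was at 50.5, 49.8 and 45.9 CPM with vehicle and at 63.9, 78.0 and 72.8 with DOX in QGP-1 cells. In BON-1 cells SS18L1 was at 42.4, 50.4 and 50.6 CPM with vehicle and at 65.6, 60.9 and 60.6 with DOX. It rose in both lines without overlap, by log2 0.55 (SE 0.087, adjusted p = 0.000274 by edgeR) and 0.39 (SE 0.0915, adjusted p = 0.00151), and in 14 of 14 alternatives in each. ACTL6B, the neuronal actin-related subunit, fell in BON-1 cells (log2 fold change −0.48, SE 0.182, adjusted p = 0.0401 by edgeR), a call that held in 9 of 14 alternatives and was lost with DESeq2 (adjusted p = 0.0737) and without BON-1 vehicle replicate 1 (−0.35) or 3 (−0.51) or without DOX replicate 1 (−0.41) or 3 (−0.49). In QGP-1 cells its value was −0.36 (SE 0.136, adjusted p = 0.0529). DPF1 was not called by edgeR in either line (QGP-1 0.44, adjusted p = 0.0994, and BON-1 0.022). Limma on rescaled TPM called DPF1 higher in QGP-1 cells (0.57, adjusted p = 0.00687). In the QGP-1 libraries DPF3 was too low to be tested, and in BON-1 cells it was at 0.994, 1.46 and 1.11 CPM with vehicle and at 2.70, 1.87 and 2.09 with DOX, without overlap and without a call (log2 fold change 0.89, SE 0.374, adjusted p = 0.0638 by edgeR). ACTL6A, the counterpart of ACTL6B in dividing cells, fell in BON-1 cells from 129 CPM ± 3.06 (SD, n = 3) to 107 ± 2.77 (log2 fold change −0.27, SE 0.075, adjusted p = 0.00552 by edgeR).

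PHF10, the PHD finger subunit of PBAF, was at 13.7, 14.6 and 14.4 CPM with vehicle and at 22.1, 20.4 and 17.5 with DOX in QGP-1 cells. It rose by 40.5% (log2 fold change 0.49, SE 0.109, adjusted p = 0.00317 by edgeR). In BON-1 cells PHF10 was at 30.5, 28.2 and 32.1 CPM with vehicle and at 22.4, 23.8 and 28.6 with DOX, a log2 fold change of −0.28 (SE 0.113, adjusted p = 0.0556) with overlap at 1 DOX library. It was called lower in 5 of 14 alternatives, among them the fit without BON-1 DOX replicate 3 (−0.41, adjusted p = 0.0071). The interaction was −0.76 (SE 0.165, adjusted p = 0.00245 by edgeR) and was called in 16 of 16 alternatives. BCL7A, an accessory protein of the ATPase module, rose in QGP-1 cells (log2 fold change 0.33, SE 0.0885, adjusted p = 0.0103) and fell in BON-1 cells (−0.31, SE 0.112, adjusted p = 0.0311, lost with DESeq2 at an adjusted p of 0.0558 and without BON-1 vehicle replicates 1 or 2 or DOX replicate 3, at −0.41 to −0.21 over 14 alternatives). Its interaction was −0.63 (SE 0.15, adjusted p = 0.00493 by edgeR). SMARCD3 rose from 14.2 CPM ± 0.579 (SD, n = 3) to 21.5 ± 0.406 in QGP-1 cells. In BON-1 cells SMARCD3 was between 0.458 and 1.61 CPM. There edgeR within the line did not call it (log2 fold change −0.84, SE 0.479, adjusted p = 0.176). With both lines in 1 fit edgeR called it lower (−0.82, adjusted p = 0.0399). BICRAL, the ncBAF scaffold, fell in BON-1 cells (log2 fold change −0.38, SE 0.11, adjusted p = 0.00753, lost without vehicle replicate 1 at −0.32), and BCL7C fell to 4.01 from 6.84 CPM there. ACTB, the actin of the complex and of the cytoskeleton, rose in QGP-1 cells (0.33, SE 0.0791, adjusted p = 0.00514).

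**Figure D2:**
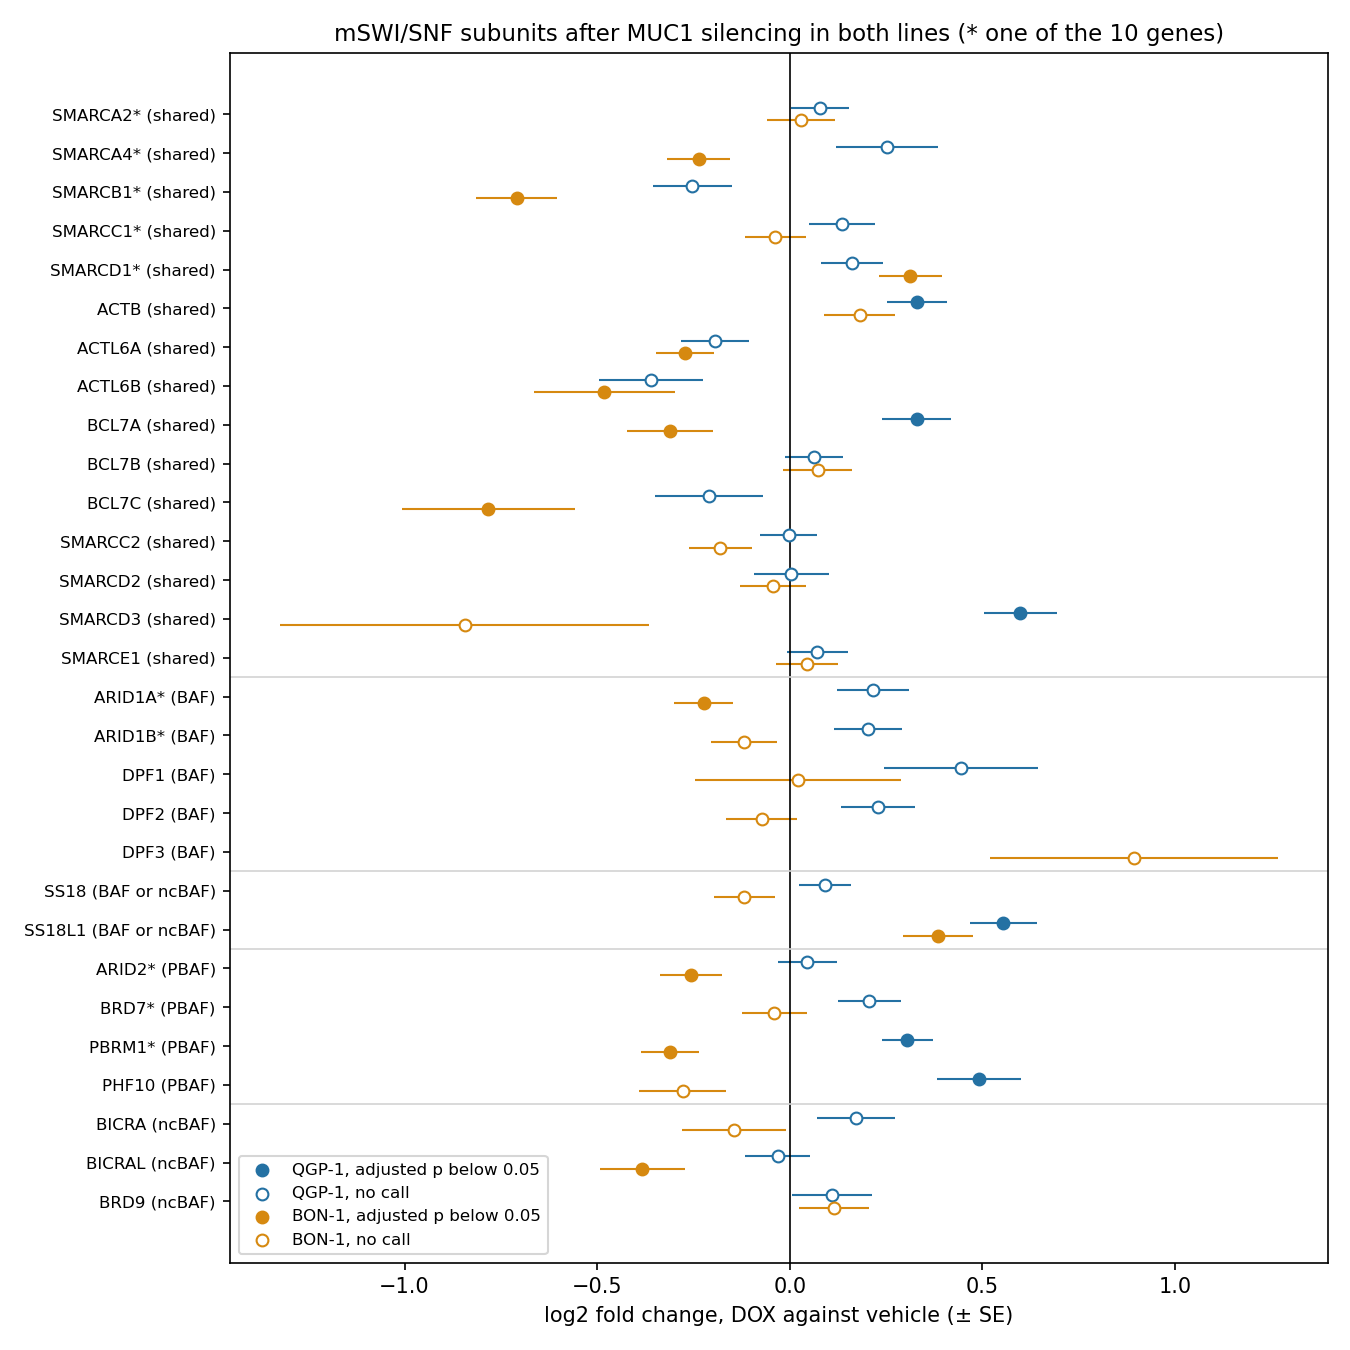
Log2 fold change of DOX against vehicle (x axis, ± SE) for the 29 mSWI/SNF subunits (y axis, grouped by complex, with the 10 genes starred), in QGP-1 (blue) and BON-1 cells (orange), filled where the adjusted p was below 0.05. In QGP-1 cells 6 filled points lie right of 0 and none left (DPF3 was not tested there), and in BON-1 cells 10 lie left of 0 and 2 right, beside 17.3% of all genes called higher and 17.7% lower in QGP-1 cells, and 17.0% and 18.3% in BON-1 cells.

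The lines also differed with vehicle alone. With vehicle, BON-1 cells had 3 members higher and 4 lower than QGP-1 cells, against 37.5% of 16598 genes higher and 37.5% lower. Here too line and medium cannot be told apart, and when the libraries of each line were prepared is not stated. ARID1A differed most, with a log2 difference of 1.37 (SE 0.0894, adjusted p = 6.59e-13 by edgeR), and PBRM1 (0.66, SE 0.072) and SMARCD1 (0.31, SE 0.0826) were also higher in BON-1 cells. SMARCC1 (−0.83, SE 0.0888), SMARCA2 (−0.73, SE 0.0821), ARID1B (−0.54, SE 0.0916) and ARID2 (−0.36, SE 0.0829) were lower. These 7 calls held in 15 of 15 alternatives. SMARCA4, SMARCB1 and BRD7 were not called, at −0.08 (SE 0.118), 0.22 (SE 0.103) and 0.18 (SE 0.0846). DESeq2, library size and the fits without QGP-1 DOX replicate 1 or BON-1 DOX replicate 2 each called 5 higher, adding SMARCB1 and BRD7.

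Levels can be set against each other only per length, for which the deposited TPM were rescaled within each library after leaving out the 3 noncoding RNAs. The tables of the lines were made separately. In QGP-1 cells with vehicle SMARCC1 led, at 64.9 TPM ± 4.94 (SD, n = 3), followed by SMARCA4 at 50.2 ± 10.2, BRD7 at 45.6 ± 1.64, ARID2 at 38.6 ± 4.69, SMARCD1 at 37.1 ± 2.42 and ARID1A at 30.6 ± 4.91. PBRM1 at 24.5 ± 1.504, SMARCA2 at 23.1 ± 1.31, ARID1B at 20.01 ± 3.20 and SMARCB1 at 16.7 ± 0.743 closed the order. Each gene overlapped the next in this order in their SD ranges, except BRD7 and ARID2. In BON-1 cells with vehicle ARID1A led, at 101 TPM ± 6.14 (SD, n = 3), well clear of BRD7 at 66.0 ± 4.24, SMARCA4 at 60.6 ± 3.36 and SMARCD1 at 58.8 ± 3.42. PBRM1 at 49.6 ± 2.50 and SMARCC1 at 46.6 ± 2.88 came next, with overlapping SD ranges, then ARID2 at 38.4 ± 2.00 and SMARCB1 at 24.9 ± 0.480. SMARCA2 at 17.8 ± 0.610 and ARID1B at 17.5 ± 1.28 were lowest and overlapped.

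**Figure D3:**
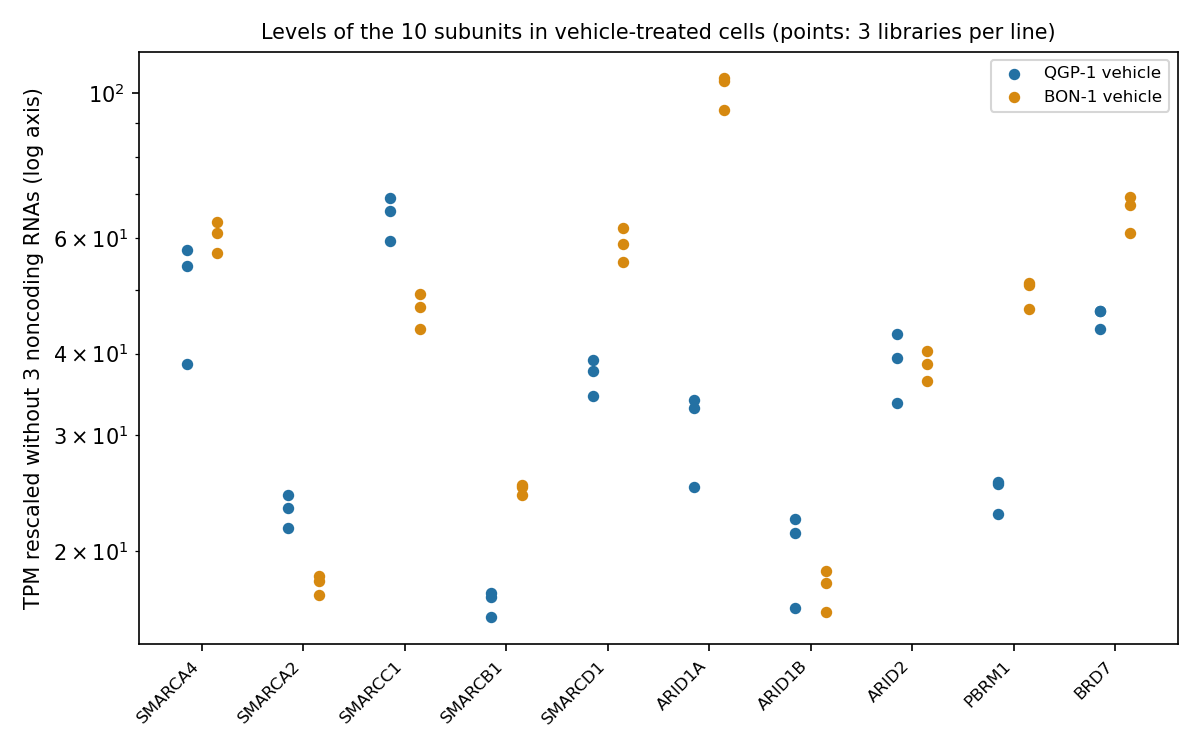
TPM of the 10 genes (log axis), rescaled without RN7SK, RN7SL1 and RN7SL2, in the 3 vehicle libraries of QGP-1 (blue) and BON-1 cells (orange). ARID1A lies near 100 TPM in BON-1 cells, the highest of the 10 there, and between 25.01 and 33.9 TPM in QGP-1 cells.

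Shares of alternative subunits, taken from the TPM within a library, do not depend on how libraries are scaled to each other. Among ARID1A, ARID1B and ARID2, ARID1A made up 34.2%, 35.2% and 33.3% in QGP-1 cells with vehicle and 35.3%, 37.0% and 35.9% with DOX. In BON-1 cells it made up 64.6%, 64.4% and 64.2% with vehicle and 65.5%, 65.5% and 61.7% with DOX. The lines thus stood far apart, while vehicle and DOX differed little within each, although the QGP-1 DOX libraries lay just above the vehicle libraries. The PBAF subunit ARID2 held 43.4% ± 1.42 (SD, n = 3) with vehicle and 40.5% ± 0.471 with DOX in QGP-1 cells, where the DOX libraries lay below the vehicle libraries, and 24.4% ± 0.480 and 23.8% ± 2.11 in BON-1 cells, where they overlapped. With 3 libraries against 3 an exact permutation test reaches a two-sided p of 0.1 at the lowest, and the shares are given by library only.

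SMARCA4 made up 77.3%, 77.7% and 76.9% of the ATPase TPM (SMARCA4 with SMARCA2) in BON-1 cells with vehicle and 75.5%, 74.0% and 72.0% with DOX, without overlap. In QGP-1 cells it made up 71.3%, 69.1% and 64.0% with vehicle and 64.8%, 73.6% and 73.3% with DOX, which overlapped. SMARCD1 took 47.2% ± 1.74 (SD, n = 3) of the SMARCD TPM with vehicle and 53.5% ± 1.03 with DOX in BON-1 cells, against 38.6% ± 1.60 and 38.3% ± 3.24 in QGP-1 cells. SMARCD3 took 15.7% ± 0.435 with vehicle and 21.0% ± 0.850 with DOX in QGP-1 cells, against 1.31% ± 0.487 and 0.646% ± 0.161 in BON-1 cells. Of the SS18 and SS18L1 TPM, SS18L1 took 18.6% ± 0.540 (SD, n = 3) with vehicle and 24.0% ± 2.71 with DOX in QGP-1 cells, against 22.7% ± 2.20 and 29.4% ± 1.90 in BON-1 cells, with every DOX library above the vehicle libraries. How the authors set the gene lengths is not stated, and shares of raw counts stood at other levels. By counts SMARCD3 took 9.48% with vehicle and 13.0% with DOX in QGP-1 cells, and SS18L1 took 29.6% and 37.4% in BON-1 cells. SMARCD1 in QGP-1 cells was at 45.1% and 45.6% by counts, the reverse of its order by TPM, which was the only direction among these shares that turned.

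**Figure D4:**
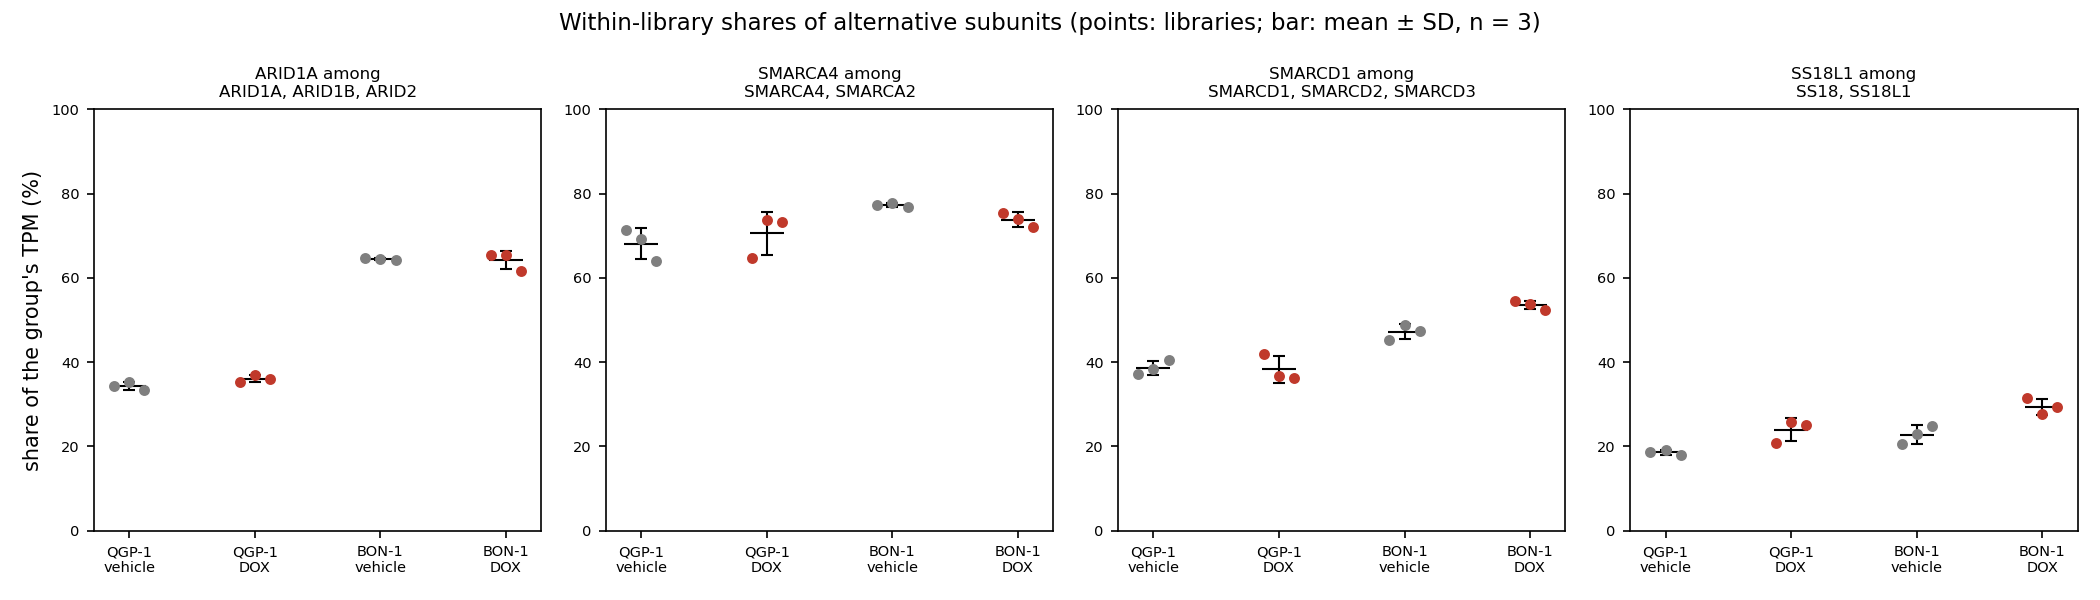
Share of 1 subunit in the TPM of its group of alternatives (y axis, percent from 0 to 100) in the 4 groups (x axis), with libraries as points and the mean ± SD over 3 libraries as bars. ARID1A takes about 34.3% of the ARID group in QGP-1 and 64.4% in BON-1 vehicle libraries, and SS18L1 is higher with DOX in both lines.

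Other remodeler families were listed for comparison. In QGP-1 cells the median log2 fold change was 0.22 for 10 ISWI genes tested, 0.18 for 21 CHD and NuRD genes and 0.06 for 27 genes of INO80, SRCAP and TIP60, beside 0.18 for the 10 BAF and PBAF genes. ISWI had 5 genes higher and 1 lower, CHD and NuRD 9 and 3, and the INO80 group 6 and 3, beside 17.3% of all genes higher and 17.7% lower. In BON-1 cells the medians were 0.04, −0.05 and −0.04, beside −0.17 for the 10 genes. There ISWI had 0 higher (0 by DESeq2 and 1 at an unadjusted p below 0.05 in edgeR) and 1 lower, CHD and NuRD 5 and 4, and the INO80 group 3 and 6, beside 17.0% of all genes higher and 18.3% lower. A positive median in QGP-1 cells was thus also seen in the other families.

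In these families, the genes with the most extreme calls in QGP-1 cells were CHRAC1 (−0.41) and BPTF (0.34), a histone-fold and a reader subunit of ISWI complexes. MTA3 (−0.44), a NuRD subunit, and CHD5 (0.50), a remodeler of neural tissue, were named by the rule in their family, where CHD8 (0.49, SE 0.0725) was as high as CHD5 (SE 0.152) and is added after its values were seen. YEATS4 (−0.55), a reader of acetylated histones, and TRRAP (0.53), the scaffold of TIP60, led theirs. In BON-1 cells they were CHRAC1 (−0.23), MBD3 (−0.62) and MBD2 (0.49), which define alternative NuRD complexes, and RUVBL1 (−0.77) and EPC1 (0.30) in the INO80 group. With limma on rescaled TPM the QGP-1 calls of CHRAC1 (−0.084), MTA3 (−0.12) and YEATS4 (−0.22) were lost at values nearer 0, and the BON-1 calls of CHRAC1 (−0.27) and EPC1 (0.25) were lost at values close to those by edgeR. The CHD5 call held in 10 of 14 alternatives and was lost with both lines in 1 fit (0.50, adjusted p = 0.15 by edgeR) and without QGP-1 vehicle replicates 1 or 3 or DOX replicate 1 (values of 0.41 to 0.46), and that of CHRAC1 in BON-1 cells held in 9 of 14, being also lost with both lines in 1 fit (−0.22, adjusted p = 0.0536) and without BON-1 vehicle replicates 1 or 3 or DOX replicate 1 (values of −0.21 to −0.18). RUVBL1, an ATPase that helps to assemble INO80 and TIP60, differed between the lines by −0.70 (SE 0.142, adjusted p = 0.00122 by edgeR).

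**Figure D5:**
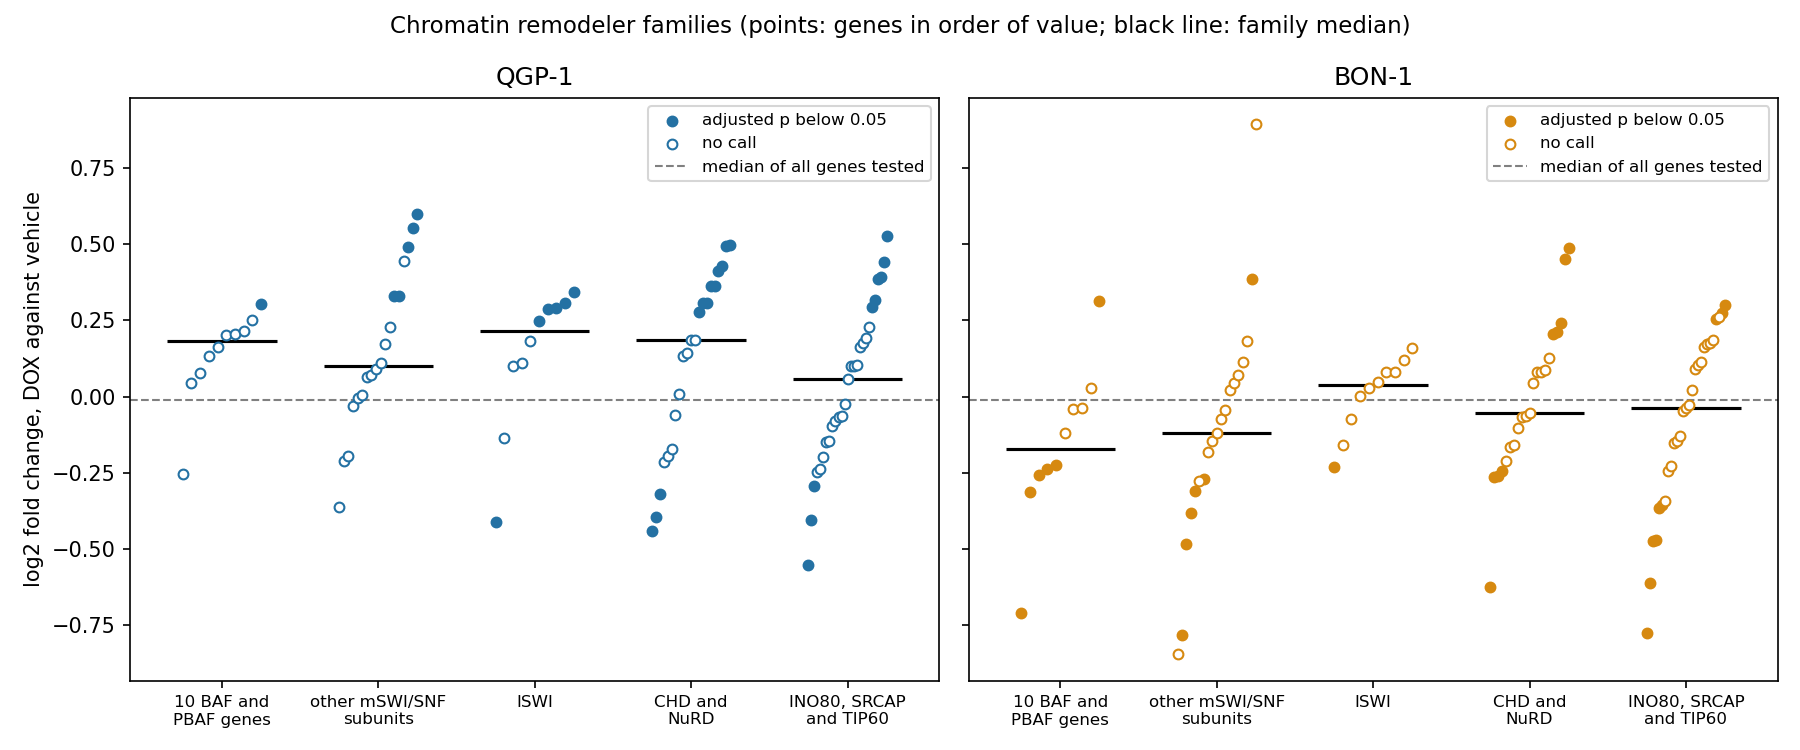
Log2 fold change of DOX against vehicle (y axis) for single genes of each chromatin remodeler family (x axis), in QGP-1 (left) and BON-1 cells (right), filled where the adjusted p was below 0.05, with the family median as a black line and the median of all genes as a dashed line. The 10 BAF and PBAF genes have medians of 0.18 and −0.17, and in QGP-1 cells the ISWI and the CHD and NuRD families lie at similar heights (0.22 and 0.18).

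E2F1, a driver of S phase genes, and JUN, a subunit of AP-1, were called in QGP-1 cells and not in BON-1 cells, and the difference between the lines passed the test for both. E2F1 was at 62.7, 55.9 and 51.3 CPM with vehicle and at 37.1, 39.1 and 42.0 with DOX in QGP-1 cells. It fell there by 30.4% (log2 fold change −0.52, SE 0.0908, adjusted p = 0.000573 by edgeR). The QGP-1 call was lost with limma on rescaled TPM (−0.19, adjusted p = 0.155). In BON-1 cells the value was −0.05 (SE 0.1, adjusted p = 0.713), and the interaction was 0.48 (SE 0.134, adjusted p = 0.0153 by edgeR). This call held in 12 of 16 alternatives and was lost without QGP-1 vehicle replicate 1 (0.40), QGP-1 DOX replicate 1 (0.38), BON-1 vehicle replicate 3 (0.42) or BON-1 DOX replicate 1 (0.42). JUN was at 4.69, 5.62 and 5.45 CPM with vehicle and at 7.65, 8.44 and 8.39 with DOX in QGP-1 cells, and rose by 55.0% (log2 fold change 0.63, SE 0.141, adjusted p = 0.00317 by edgeR). In BON-1 cells the value was −0.09 (SE 0.136, adjusted p = 0.632), with an interaction of −0.72 (SE 0.202, adjusted p = 0.016 by edgeR) that was lost without BON-1 vehicle replicate 1 (−0.65, adjusted p = 0.0519).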

How the data were processed

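RNA was measured in 12 libraries from QGP-1 and BON-1 cells. The authors prepared stranded mRNA libraries, aligned reads to GRCh38 with STAR, and deposited raw counts per gene without normalization and TPM values. The counting program, its strand setting and the gene lengths are not given in the sources used here. The depth of 15981954 to 50525926 counts leaves the replicate spread as the main error for genes well above 1 CPM. Tests on the deposited counts used edgeR 4.0.16 (R 4.3.3, default filter, TMM, quasi-likelihood test, Benjamini-Hochberg adjustment over all genes, threshold 0.05), within each line and as an interaction over 12 libraries. The SE is the log2 fold change divided by the root of F. The deposited TPM gave shares and levels, and limma 3.58.1 tested log2(TPM + 1) for mean TPM of at least 1, rescaled without RN7SK, RN7SL1 and RN7SL2. DESeq2 1.42.0, other size factors, library size, no filter, a minimum of 10 counts, a replicate block, both lines in 1 fit and left-out libraries were the alternatives. Replicates differed beyond sampling noise (chi-square per gene 5.93 to 29.7). Code was tested on simulated data. The 10 genes, the lists and the tests were chosen with earlier results of these data known. Named were all subunits, MUC1, E2F1 and JUN, the most extreme called gene of each other family in each direction and line, and markers. Antisense neighbors were named after their values were seen. Positions are GENCODE, promoters RefSeq (24 of 29 subunits matched).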

Additional observations from a re-analysis of the deposited data

Results flagged for a closer look

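Among the genes named by the rule, these results were singled out because the DOX response differed between the lines by the interaction test of edgeR (BON-1 response minus QGP-1 response, log2, adjusted p below 0.05). Among the 10 genes these were PBRM1 (−0.61), SMARCB1 (−0.45) and ARID1A (−0.43). Among the other subunits they were SMARCD3 (−1.41), PHF10 (−0.76) and BCL7A (−0.63). E2F1 (0.48), JUN (−0.72) and RUVBL1 (−0.70) also differed. Counting all listed genes of the other families, 2 of 10 ISWI genes responded lower in BON-1 cells, as did 2 of 21 of CHD and NuRD and 3 of 27 of the INO80 group, and 1 of CHD and NuRD (CDK2AP1) responded higher, beside 7.92% of all genes lower and 8.80% higher. The markers CHGA (−1.60), SYP (−0.51), SSTR2 (−2.96), PRSS1 (1.10), KRT19 (1.00) and SOX9 (0.47) differed by the same test. SMARCD3 was near 1 CPM in BON-1 cells, so that its value rests on few counts there. With 3 libraries a group, single libraries were not screened for outliers.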

How the results depend on the processing

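Of the subunits, MUC1, E2F1, JUN and the named genes of other families, all 64 called results that were recomputed kept their sign under the alternatives run, and none was run for markers, antisense neighbors, CDK2AP1 and CHD8. Counts that moved by over 1.5 times were these. In QGP-1 cells members higher were 1, and 2 with library size, 4 without a filter, 3 with the replicate block and 9 with limma on rescaled TPM, which also gave 23 subunits higher, 668 genes lower and 6520 higher. Leaving out 1 library gave 0 to 1 members lower, 1 to 3 members higher and 0 to 1 subunits lower there. In BON-1 cells both lines in 1 fit gave 3 members lower, limma on rescaled TPM gave 1410 genes higher, and left-out libraries gave 3 to 5 members and 5 to 11 subunits lower. For the interaction, members lower were 6 with library size, 6 without a filter and 1 to 5 over left-out libraries. For the vehicle groups, members higher were 5 with DESeq2, 5 with library size and 3 to 5 over left-out libraries. The cause of these shifts was not tested.

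Same-numbered libraries showed little correlation of their deviations (−0.039 to 0.067), which with 3 libraries a group cannot exclude pairing. The replicate block left 5 members lower in BON-1 cells and gave 4 for the interaction. In QGP-1 cells the block added ARID1A and ARID1B as higher (adjusted p = 0.0418 and 0.0383 by edgeR).

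Sign changes fell on values that edgeR did not call, up to −0.25 for SMARCB1 in QGP-1 cells. In QGP-1 cells SMARCC2 became 9.9e-05 with DESeq2 size factors, 0.011 with library size and 0.0035 without a filter. On rescaled TPM it was 0.32, SMARCB1 0.057, ACTL6A 0.13, BCL7C 0.10, BICRAL 0.28, MBD3 0.11 and RUVBL1 0.25, of which limma called SMARCC2 (adjusted p = 0.0172), BICRAL (0.0497) and RUVBL1 (0.0145) higher. In BON-1 cells library size gave SMARCA2 −0.015, SMARCE1 −0.0016 and DPF1 −0.023, and rescaled TPM gave SMARCA2 −0.013. For the interaction BCL7B was −0.052 with library size and −0.0085 without a filter, and BRD9 −0.060 and −0.017. For the vehicle groups library size gave SMARCA4 0.026, SS18L1 0.0013 and BICRA 0.023. Over left-out libraries the ranges in BON-1 cells were BRD7 −0.092 to 0.011, CHD5 −0.67 to 0.35, DPF1 −0.21 to 0.17, DPF2 −0.13 to 0.0094, SMARCA2 −0.041 to 0.061, SMARCC1 −0.086 to 0.017 and SMARCD2 −0.10 to 0.037. For the interaction they were BCL7B −0.053 to 0.074, BRD9 −0.15 to 0.072, SMARCD2 −0.17 to 0.045 and SMARCE1 −0.091 to 0.022. For the vehicle groups they were ACTL6B −0.12 to 0.11, BCL7A −0.017 to 0.10 and SMARCA4 −0.22 to 0.0052. In QGP-1 cells they were ARID2 −0.018 to 0.10, BICRAL −0.10 to 0.015, SMARCC2 −0.070 to 0.037 and SMARCD2 −0.082 to 0.084.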
